A study of Mus musculus with 21 samples.

Results

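Motile cilia genes were followed in choroid plexus and hypothalamus of mice given extra Ins2, which encodes an insulin, in the choroid plexus, and of control mice. They were chosen by symbol: names that begin with Cfap, Dnah, Dnaaf, Dnaic, Tekt or Rsph and a digit, and 7 genes by name (Ccdc39, Ccdc40, Wdr78, Foxj1, Hydin, Spef2 and Armc4). The rule found 73 of the 25239 genes listed in each tissue's table: 33 Cfap, 14 Dnah, 7 Rsph, 5 Dnaaf, 5 Tekt and 2 Dnaic genes and the 7 named genes. All mice were labelled wild type on a C57BL/6J background. Choroid plexus, the epithelium that secretes cerebrospinal fluid, gave 6 Ins2 and 5 control samples for bulk RNA sequencing. Hypothalamus of mice with choroid plexus Ins2 gave 5 samples and control hypothalamus 5. The labels list all controls as untreated, but the column names of the hypothalamus controls begin with GFP. How Ins2 was introduced, under which promoter, and how old and of which sex the mice were are not stated in the labels.

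A motile cilium beats because dynein motors slide the outer doublet microtubules of its axoneme against each other, while a central microtubule pair and radial spokes set the rhythm. The motors are built in the cytoplasm by assembly factors, and the transcription factor Foxj1, with factors of the RFX family, switches on the genes of the whole structure. In the brain, ependymal cells of the ventricle walls carry tufts of motile cilia that move cerebrospinal fluid. Choroid plexus epithelial cells also carry tufts of cilia, while most neurons and glia have a single non-motile cilium that lacks dynein arms.

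Libraries held 25950069 to 36289667 reads in genes in choroid plexus and 27368464 to 62062133 in hypothalamus. In choroid plexus, Ins2 averaged 826 ± 162 scaled reads in Ins2 mice and 430 ± 50.7 in controls (SD, n = 6 and 5), and the ranges did not overlap (598 to 1041 and 387 to 501). In hypothalamus it had 0 reads in 9 libraries and 5 reads in 1. A scaled read is a read count divided by the authors' size factor of that library. Ttr, the marker of choroid plexus epithelium, took 107294 to 129791 RPM (reads per 1000000 reads in genes) in choroid plexus and at most 1.02 RPM in hypothalamus. Choroid plexus control 2 stood apart: its 15 oligodendrocyte markers summed to 57505 scaled reads, against at most 6423 in any Ins2 library. In the hypothalamus table, Ins2 library 4 and control 3 were the lowest and highest for the motile cilia genes.

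Promoters of 59 of the 73 genes were found in RefSeq's table (build GRCm38.p6), as 250 bases before and 50 after the transcription start. The X-box, the motif bound by RFX factors, was searched on both strands as GTTNCC and GNAAC with 3 bases of any kind between them. It occurred in 7 of the 59 promoters (11.9%): those of Cfap298, Cfap44, Cfap45, Cfap61, Dnaaf2, Hydin and Tekt4. Of 13188 genes that were expressed in either tissue and had a promoter in the table, 150 (1.14%) held it, and of all 27025 genes, 253 (0.936%). The forkhead motif GTAAACA, of the class that Foxj1 binds, occurred in 4 of the 59 (6.78%): Cfap20, Cfap43, Dnah17 and Tekt3. Of the 13188 expressed genes 413 (3.13%) held it, and of all genes 4.05%. No promoter of the 59 held both motifs. The 60 bases before the start are shown for the 4 genes whose X-box lies wholly within them, because Cfap44 is also the gene whose response to Ins2 differed most between the tissues by p. Capitals mark the X-box, and each sequence runs 5′ to 3′ on the gene's strand, on which these 4 sites match the reverse complement of the motif.
Cfap44 (chr16:44394739-44394798, plus strand): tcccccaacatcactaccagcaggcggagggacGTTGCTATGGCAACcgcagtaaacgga
Cfap45 (chr1:172521070-172521129, plus strand): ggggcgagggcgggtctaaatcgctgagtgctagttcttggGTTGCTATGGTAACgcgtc
Dnaaf2 (chr12:69198430-69198489, minus strand): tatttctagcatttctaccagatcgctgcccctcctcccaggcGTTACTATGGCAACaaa
Hydin (chr8:110266917-110266976, plus strand): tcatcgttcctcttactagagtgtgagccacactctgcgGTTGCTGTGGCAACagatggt
In these 4 genes the motif begins 27, 19, 17 and 21 bases before the start.

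Most motile cilia genes were more abundant in choroid plexus than in hypothalamus. Levels between tissues and between genes are given as RPKM, which is RPM divided by the kilobases of exon, computed from the recovered read counts, because each tissue's table was scaled on its own, and they were set side by side without a test. Every choroid plexus library lay above every hypothalamus library for 44 of the 73 genes (60.3%), against 21.8% of all 16899 genes with a mean of at least 10 scaled reads in either tissue. The order was the reverse for 12 genes (16.4%, against 48.5% of all genes), and 17 overlapped. The median ratio of choroid plexus to hypothalamus control means was 2.84 over the 73 genes and 0.640 over all genes. Summed over the 73 genes, reads were 0.307% to 0.318% of each Ins2 library and 0.291% to 0.306% of each control library in choroid plexus. In hypothalamus they were 0.0819% to 0.0899% of each Ins2 library and 0.0856% to 0.0989% of each control library.

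**Figure D1:**
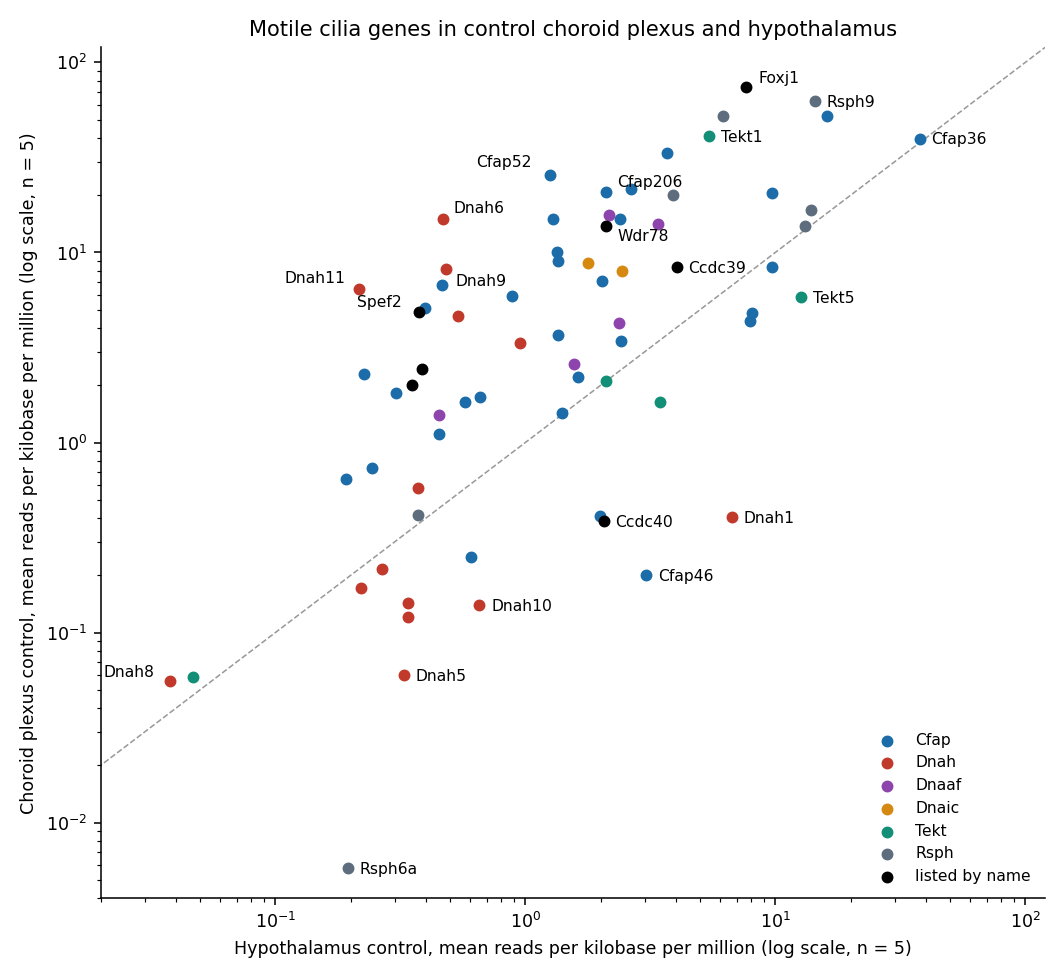
Mean level of each motile cilia gene in control choroid plexus (vertical axis) against control hypothalamus (horizontal axis), in RPKM on log scales, n = 5 libraries each; the dashed line marks equal levels, colours mark gene families, and Cfap97d1, listed at 0 in choroid plexus, is not drawn. Most points lie above the line, while Dnah1, Cfap46, Ccdc40 and Dnah5 lie well below it.

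Foxj1, the master transcription factor of motile cilia, had the highest mean level of the 73 genes in choroid plexus, with 72.1 ± 6.69 RPKM in Ins2 and 74.4 ± 5.88 RPKM in control samples (SD, n = 6 and 5). In hypothalamus it had 8.14 ± 1.21 RPKM in Ins2 and 7.66 ± 1.49 RPKM in control samples (n = 5 each). Next to Foxj1 in choroid plexus stood the radial spoke head genes Rsph9 (64.6 ± 5.19 RPKM in Ins2 and 62.6 ± 2.86 in controls) and Rsph1 (54.0 ± 8.08 and 52.3 ± 3.23), and the libraries of neighbours in this order overlapped (61.0 to 80.3 for Foxj1, 57.9 to 71.9 for Rsph9 and 39.2 to 62.8 for Rsph1). Of the upstream regulators of multiciliation, Gmnc, which starts the programme, had 1384 to 2387 scaled reads in choroid plexus and 11.8 to 37.3 in hypothalamus. Mcidas, the related factor that acts with it in other multiciliated cells, had 0 reads in all 11 choroid plexus libraries; at their depths, a count of 0 leaves room for 0.0827 to 0.116 RPM. Mcidas had 1 to 52 reads in each hypothalamus library.

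The outer dynein arms, which give most of the power of the beat, contain paired heavy chains, and mice have 5 genes for them among the 14 Dnah genes. Dnah9 and Dnah11 encode the chain of the distal and the proximal cilium in human airway cells, and Dnah5 encodes the partner of both. In control choroid plexus Dnah9 had 8.20 ± 0.300 RPKM and Dnah11 6.41 ± 0.336 RPKM (n = 5). Dnah5 had 0.0527 ± 0.0286 RPKM in Ins2 and 0.0595 ± 0.0299 RPKM in control choroid plexus, where it held 9.42 to 43.4 and 15.8 to 50.5 scaled reads. In hypothalamus Dnah5 had 0.306 ± 0.0341 RPKM in Ins2 and 0.327 ± 0.0710 in controls, which was 5.49 times the choroid plexus control mean. Hypothalamus Dnah9 was 0.483 ± 0.0407 RPKM and Dnah11 0.216 ± 0.0497 RPKM in controls, so that Dnah5 lay between them there. Dnah8 and Dnah17, the outer arm chains of sperm, had 0.0559 ± 0.0190 and 0.173 ± 0.0688 RPKM in control choroid plexus and 0.0378 ± 0.00767 and 0.221 ± 0.0604 RPKM in control hypothalamus.

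Inner arm chains, which shape the waveform, were unequal too. Dnah6 was the most abundant heavy chain of choroid plexus, with 16.3 ± 1.31 RPKM in Ins2 and 15.1 ± 1.60 RPKM in controls, and its ratio to control hypothalamus (0.470 ± 0.0764 RPKM) was 32.0, the highest of the 73 genes. Dnah11 followed with a ratio of 29.7 and Dnah9 had 17.0. Dnah2, of the double-headed inner arm, had 4.65 ± 0.341 RPKM in control choroid plexus. Its partner Dnah10 had 0.139 ± 0.0805 RPKM there, against 0.537 ± 0.0973 and 0.655 ± 0.102 RPKM for the same genes in control hypothalamus. Dnah1, also an inner arm chain, had 0.406 ± 0.120 RPKM in control choroid plexus and 6.72 ± 0.556 in control hypothalamus, a ratio of 16.5 in the hypothalamus direction. It was the most abundant heavy chain of hypothalamus. Dnah7a, Dnah7b and Dnah7c share 40.3%, 48.4% and 48.5% of their 50-base stretches with each other, so reads could be split among them in the authors' counting.

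**Figure D2:**
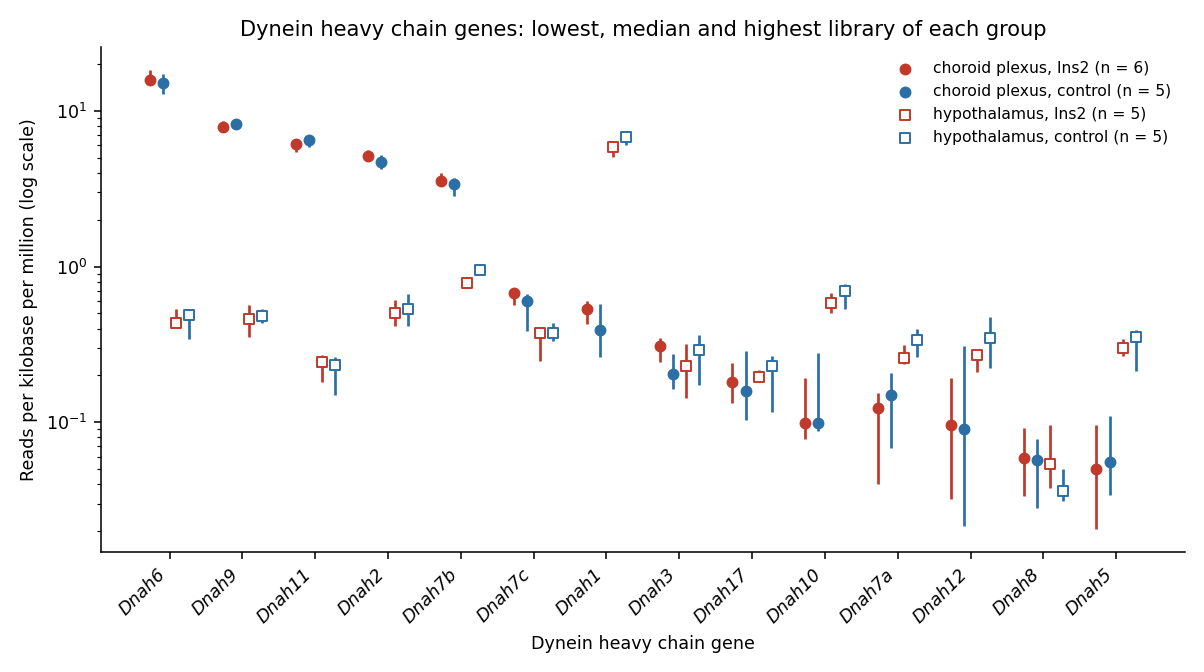
Level of the 14 dynein heavy chain genes in RPKM (log scale): the point is the median library and the line spans the lowest to the highest library of each group, filled circles for choroid plexus and open squares for hypothalamus, red for Ins2 and blue for control. Dnah6, Dnah9, Dnah11, Dnah2 and Dnah7b lie higher in choroid plexus, and Dnah1, Dnah10, Dnah7a and Dnah5 higher in hypothalamus.

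Partner genes of other axoneme parts also stood apart in choroid plexus. Ccdc39 and Ccdc40 encode the paired proteins of the molecular ruler that spaces dyneins and spokes along the doublets. Ccdc39 had 9.06 ± 1.29 RPKM in Ins2 and 8.39 ± 0.607 in control choroid plexus, and Ccdc40 had 0.366 ± 0.0485 and 0.385 ± 0.120 RPKM. In control hypothalamus the same genes had 4.04 ± 0.324 and 2.05 ± 0.105 RPKM. The products of Cfap46, Cfap54, Cfap74 and Cfap221 form 1 projection of the central pair in the alga Chlamydomonas. In control choroid plexus these genes had 0.20 ± 0.115, 5.89 ± 0.457, 7.07 ± 0.769 and 0.734 ± 0.234 RPKM. In control hypothalamus Cfap46 was the highest of the 4, with 3.04 ± 0.294 RPKM, and the others had 0.886 ± 0.133, 2.03 ± 0.159 and 0.244 ± 0.111. Opposite-strand genes share 16.9% of the exon bases of Ccdc39 and 4.55% of those of Cfap74, and the strand setting of the counting is not given, so part of those reads cannot be assigned for certain. Hydin and Spef2, further proteins of the central pair, had 2.01 ± 0.161 and 4.84 ± 0.247 RPKM in control choroid plexus and 0.353 ± 0.0609 and 0.377 ± 0.0675 RPKM in control hypothalamus.

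The spoke and tektin families split by gene. Rsph1, Rsph4a and Rsph9 of the spoke head were 8.46, 5.15 and 4.36 times as high in control choroid plexus as in control hypothalamus. Rsph3a and Rsph3b of the stalk, which share 74.0% and 75.8% of their 50-base stretches, overlapped between the tissues. Rsph6a, a spoke head gene of sperm, had at most 2.17 scaled reads in any choroid plexus library and 3.45 to 22.8 in hypothalamus libraries. Tekt1, whose product lies inside the doublet microtubules, had 45.2 ± 2.07 RPKM in Ins2 and 41.1 ± 2.79 in control choroid plexus, and 4.17 ± 0.358 and 5.44 ± 0.688 RPKM in Ins2 and control hypothalamus. Tekt2 and Tekt5 went the other way, with 1.64 ± 0.246 and 5.8 ± 0.596 RPKM in control choroid plexus and 3.45 ± 0.607 and 12.7 ± 0.996 in control hypothalamus. An opposite-strand gene shares 20.8% of the exon bases of Tekt2, so part of the Tekt2 reads cannot be assigned for certain. Assembly factors of the Dnaaf family were all higher in choroid plexus, at 1.66 to 7.30 times the hypothalamus control mean. Opposite-strand genes share 10.6% to 37.4% of their exon bases. Dnaaf2 and Dnaaf4, which had the lowest ratios, share 37.9% and 58.2% of their 50-base stretches with other genes, so their reads are less certain. Among Cfap genes, Cfap298 led choroid plexus (52.1 ± 5.90 RPKM in controls; 44.2% of its exon bases are shared with opposite-strand genes) and Cfap36, which is not limited to motile cilia, led hypothalamus (37.7 ± 4.75 RPKM).

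Markers of the cells that could carry these genes were read in both tissues. The ependymal markers Ccdc153, Tmem212 and Fam183b had 3.15 to 39.0 scaled reads (Ccdc153 and Tmem212) and 0 to 6.58 (Fam183b) in Ins2 choroid plexus, against 3.24 to 49.6 and 1.98 to 14 in controls. In hypothalamus Ccdc153 had 259 to 433 in Ins2 and 305 to 398 in controls, Tmem212 had 89.7 to 154 and 81.0 to 195, and Fam183b had 286 to 350 and 262 to 542. In choroid plexus these 3 were the lowest of a list of 14 ependymal markers, whose sum was higher in choroid plexus, at 24679 to 28254 scaled reads in Ins2 and 26562 to 27588 in control samples, than in hypothalamus, at 9839 to 11120 in Ins2 and 10446 to 12106 in control samples. Most of the choroid plexus sum was Pltp, a lipid transfer protein, with 19954 to 23394 in Ins2 and 21616 to 22845 in control samples. Each tissue's table was scaled on its own. These are bulk samples, so fewer cells of a type and less RNA per cell cannot be told apart.

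The first comparison asked whether motile cilia genes of the choroid plexus responded to Ins2 overexpression in the same tissue. Most lay above 0 by small amounts, and none passed the test. Of the 70 genes with a mean of at least 10 scaled reads, 50 had a log2 fold change above 0 (71.4%, against 48.4% of all 14533 genes tested), with a median of 0.06 on the log2(value + 1) scale and -0.005 over all genes. Limma called 0 of the 70 at a Benjamini-Hochberg adjusted p under 0.05, and 0.0138% of all genes. At an unadjusted p under 0.05, 10 genes were higher and 0 lower (2.54% and 3.67% of all genes). EdgeR also called 0, with 10 at an unadjusted p under 0.05 (6.56% of all genes). DESeq2 called 1, Wdr78 (log2 fold change 0.24, DESeq2 adjusted p = 0.0165), and 0.234% of all genes, with 9 at an unadjusted p under 0.05 (6.36% of all genes). Without control 2, 44 of 70 were above 0, with a median of 0.03 and 7 genes higher and 1 lower at an unadjusted p under 0.05. Without control 3 the median was also 0.03, with 6 higher, and without Ins2 library 4 it was 0.04. Without control 5, 5 genes were higher at an unadjusted p under 0.05.

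Wdr78, an intermediate chain of an inner arm dynein (chromosome 4, 103038065 to 103114555, minus strand), had the smallest p. Its 6 Ins2 choroid plexus libraries ran from 3335 over a median of 3446 to 3922 scaled reads, and its control libraries held 2912, 3034, 3166, 3102 and 2882. Every Ins2 library lay above every control library, the only such gene of the 70 (34 of all genes, 0.234%); none lay wholly below (0.392% of all genes). The means were 3556 ± 243 in Ins2 and 3019 ± 121 in control samples (SD, n = 6 and 5), and their ratio on the log scale was 1.18 (1.09 to 1.27 at 95% confidence; adjusted p = 0.385 by limma; exact two-sided permutation p = 0.00216, the smallest that these groups allow). Opposite-strand genes cover 1.78% of its exon bases.

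Cfap65, of the central pair in Chlamydomonas and known from sperm in mice, was the most abundant Cfap gene by reads. It had 5262 to 5953 scaled reads in Ins2 choroid plexus, median 5771, and 5065, 5286, 4919, 5428 and 4502 in controls. The ranges overlapped by 1 Ins2 library and 2 controls; the fold was 1.13 (1.04 to 1.22; adjusted p = 0.564 by limma). Dnah3, an inner arm chain, had 104 to 144 in Ins2 samples, median 130, and 115, 107, 88.0, 81.2 and 70.2 in controls. That was a fold of 1.4 (1.09 to 1.78; adjusted p = 0.645 by limma) at a low level, and 10.5% of its exon bases overlap opposite-strand genes. Cfap57 had a fold of 1.26 (1.04 to 1.52), Cfap74 1.13 (1.02 to 1.25), Cfap44 1.11 (1.01 to 1.21), Dnah1 1.31 (1.01 to 1.68) and Cfap43 1.11 (1.0 to 1.23), with limma adjusted p-values of 0.729 to 0.793. Cfap43 and Cfap44 form the tether of an inner arm dynein in Tetrahymena, and Cfap57 is needed for other inner arm dyneins in algae.

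On the lower side, Dnah11 averaged 2559 ± 193 in Ins2 and 2763 ± 158 in control choroid plexus, a fold of 0.925 (0.847 to 1.01; adjusted p = 0.823 by limma). Cfap20, of the inner junction of the doublets, had a fold of 0.915 (0.822 to 1.02), and Dnah9 0.963 (0.892 to 1.04). Cfap54, Cfap161, Dnah7a and Cfap157 had folds of 0.944, 0.879, 0.783 and 0.898, with limma adjusted p-values of 0.904 to 0.928. Foxj1 itself had 5550 ± 450 in Ins2 and 5817 ± 448 in control samples, a fold of 0.954 (0.869 to 1.05; adjusted p = 0.909 by limma).

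By family, the counts above 0 in choroid plexus were 22 of 32 Cfap, 9 of 14 Dnah, 5 of 5 Dnaaf, 2 of 2 Dnaic, 3 of 4 Tekt, 4 of 6 Rsph and 5 of the 7 named genes. The most abundant members of the other families, Dnah6 (1.07, 0.959 to 1.19), Dnaaf5 (1.05, 0.953 to 1.16), Dnaic2 (1.10, 1.0 to 1.21), Tekt1 (1.08, 0.998 to 1.18) and Rsph9 (1.02, 0.929 to 1.11), had folds between 1.02 and 1.10. Of the named genes, Ccdc39 had a fold of 1.06, Ccdc40 0.967, Hydin 1.01, Spef2 1.07 and Armc4, of the outer arm docking complex, 1.10. Cfap97d1, Rsph6a and Tekt3 were too low to test in choroid plexus, with at most 9.27 scaled reads.

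**Figure D3:**
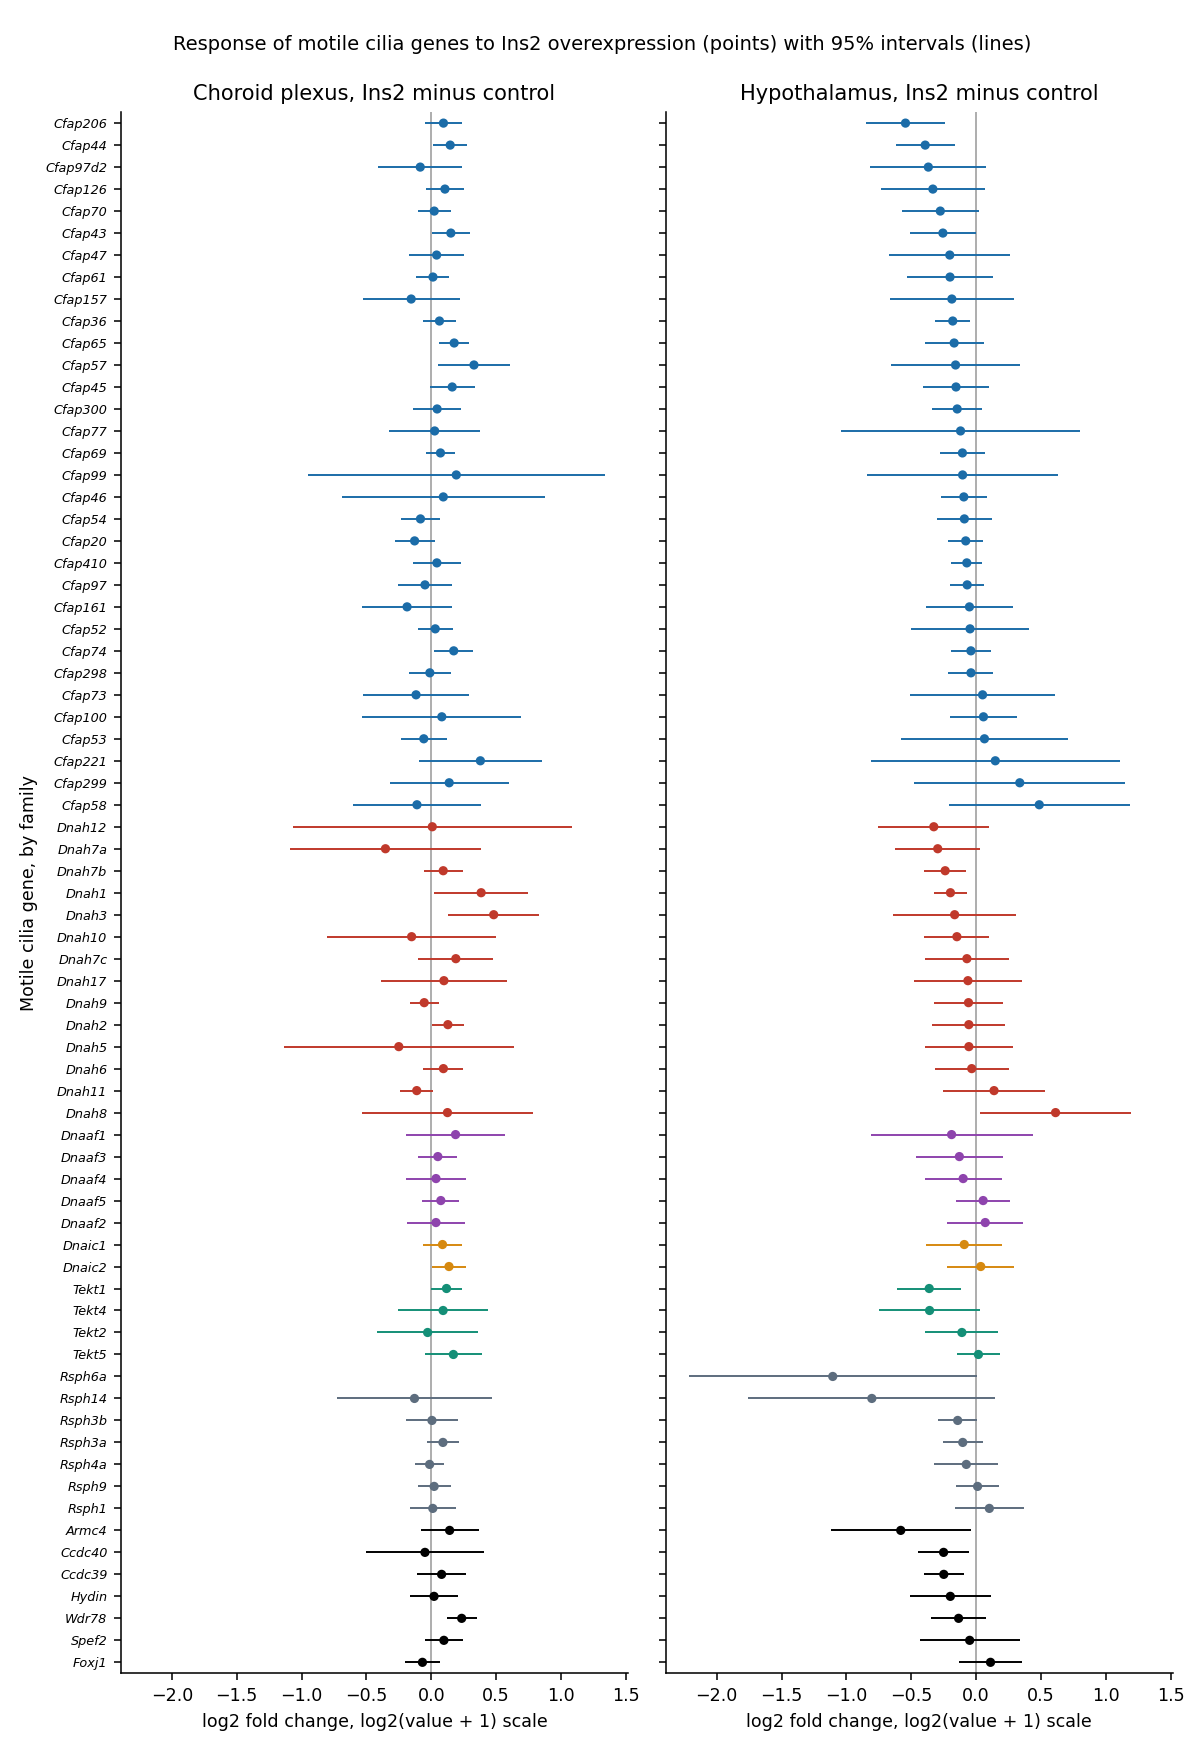
Log2 fold change of each motile cilia gene, Ins2 minus control, with its 95% interval from limma, in choroid plexus (left) and hypothalamus (right), on the log2(value + 1) scale; colours and order follow the families Cfap, Dnah, Dnaaf, Dnaic, Tekt and Rsph and the named genes. Of 70 genes in choroid plexus 50 lie above 0, and of 71 in hypothalamus 56 lie below 0.

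The second comparison asked whether hypothalamus genes responded to Ins2 made in the choroid plexus. Here most motile cilia genes lay below 0, and again none passed the test. Of 71 genes tested, 56 had a log2 fold change below 0 (78.9%, against 49.7% of all 16363 genes) and 15 above 0 (50.3% of all genes), with a median of -0.10 and 0.001 over all genes. Limma called 0 of the 71, and 0.0% of all genes. At an unadjusted p under 0.05, 10 genes were lower and 1 higher (4.08% and 5.85% of all genes). EdgeR called 0, with 11 at an unadjusted p under 0.05 (9.96% of all genes). DESeq2 called 0, against 0.251% of all genes, with 11 at an unadjusted p under 0.05 (10.4% of all genes). Without Ins2 library 4 the median was -0.07, with 50 of 71 below 0 and 8 lower at an unadjusted p under 0.05. Without control 3 it was also -0.07, with 49 below 0 and 10 lower.

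Cfap206, a radial spoke protein in Tetrahymena that docks an inner arm dynein (chromosome 4, 34688559 to 34730206, minus strand), had the smallest p. Its Ins2 hypothalamus libraries held 130, 121, 130, 123 and 117 scaled reads, and its control libraries 172, 179, 198, 223 and 145. The Ins2 libraries sat close together and all lay below the controls, which spread more widely. The means were 124 ± 5.42 in Ins2 and 184 ± 29.1 in control samples (SD, n = 5 each), a ratio on the log scale of 0.685 (0.555 to 0.846; adjusted p = 0.316 by limma; exact two-sided permutation p = 0.00794, the smallest that these groups allow).

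Cfap44, of the dynein tether (chromosome 16, 44394796 to 44482428, plus strand), had 312, 278, 309, 255 and 290 scaled reads in Ins2 hypothalamus and 424, 367, 362, 430 and 320 in controls. Its ranges did not overlap either, and the fold was 0.761 (0.651 to 0.891; adjusted p = 0.316 by limma). Dnah7b, an inner arm chain, had 600, 519, 605, 554 and 553 in Ins2 samples and 686, 672, 727, 632 and 627 in controls. It was the last of 3 genes whose Ins2 libraries all lay below the controls (0.727% of all genes), while none had the reverse (0.77% of all genes), with a fold of 0.847 (0.756 to 0.949; adjusted p = 0.360 by limma).

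Both partners of the molecular ruler were on the lower side in hypothalamus. Ccdc39 had 983, 789, 905, 865 and 910 scaled reads in Ins2 samples and 1043, 1130, 1102, 1094 and 925 in controls, a fold of 0.841 (0.755 to 0.936; adjusted p = 0.326 by limma). Ccdc40 had 344, 350, 432, 340 and 372 in Ins2 samples and 444, 407, 424, 466 and 442 in controls, a fold of 0.840 (0.732 to 0.964; adjusted p = 0.396 by limma). In each of them 1 Ins2 library reached into the range of the controls. Tekt1 (chromosome 11, 72344722 to 72362442, minus strand) had 233, 262, 247, 209 and 251 in Ins2 samples and 349, 258, 349, 289 and 309 in controls, a fold of 0.778 (0.657 to 0.922; adjusted p = 0.350 by limma). Dnah1 had a fold of 0.871 (0.797 to 0.952), Cfap36 0.882 (0.803 to 0.968) and Armc4 0.668 (0.459 to 0.972), with limma adjusted p-values of 0.340, 0.383 and 0.473. Cfap36 was close together in Ins2 samples (3199 ± 75.8) and spread in controls (3648 ± 450).

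The gene on the higher side in hypothalamus was Dnah8, the outer arm chain of sperm, at a very low level. It had 90.7, 36.2, 56.1, 49.4 and 51.5 scaled reads in Ins2 samples and 34.3, 36.5, 29.4, 30.4 and 48.0 in controls, a fold of 1.53 (1.02 to 2.29; adjusted p = 0.483 by limma). Ins2 library 1 was the highest. No gene of the set was higher at an unadjusted p under 0.05 by limma without the filter on low values, with array weights, or when Ins2 library 1, 3 or 5 or control 1, 2, 3 or 4 was left out. Foxj1 had 725, 827, 920, 631 and 693 in Ins2 samples and 635, 651, 903, 556 and 794 in controls, a fold of 1.08 (0.910 to 1.28; adjusted p = 0.777 by limma), and its groups overlapped widely. The other named genes lay between 0.871 and 0.966: Hydin 0.871, Wdr78 0.910 and Spef2 0.966. Cfap58, Cfap299, Rsph1, Dnah11, Dnaaf5 and Dnaaf2 had folds of 1.4, 1.26, 1.07, 1.10, 1.04 and 1.05, with limma adjusted p-values of 0.654 to 0.898. Of the most abundant family members, Dnaic2 had 1.02, Tekt5 1.01 and Rsph3a 0.930. By family, the counts below 0 were 26 of 32 Cfap, 12 of 14 Dnah, 3 of 5 Dnaaf, 1 of 2 Dnaic, 3 of 4 Tekt, 5 of 7 Rsph and 6 of the 7 named genes.

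**Figure D4:**
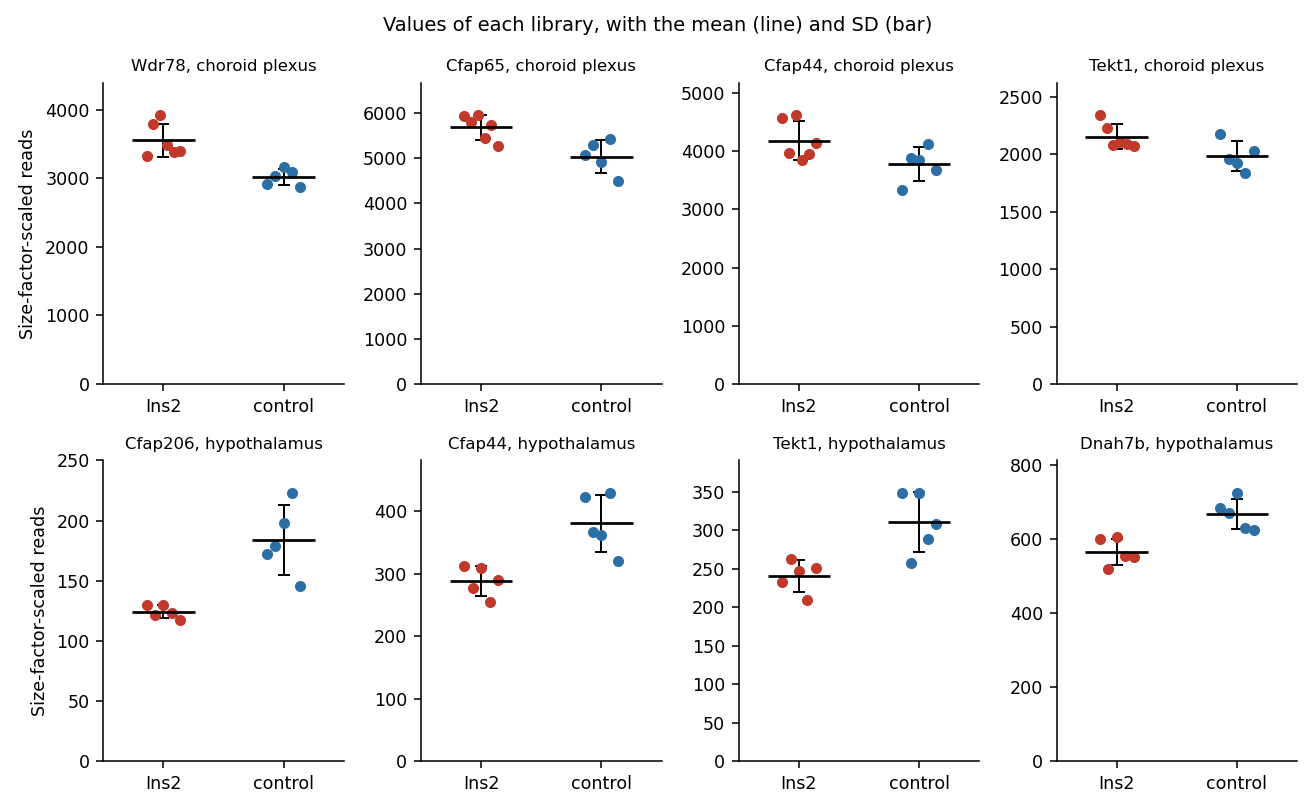
Size-factor-scaled reads of each library for Wdr78, Cfap65, Cfap44 and Tekt1 in choroid plexus (upper row) and Cfap206, Cfap44, Tekt1 and Dnah7b in hypothalamus (lower row), Ins2 left of control, with the mean (line) and SD (bar); axes start at 0. Ins2 libraries lie above every control for Wdr78 in choroid plexus, and below every control for Cfap206, Cfap44 and Dnah7b in hypothalamus.

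Markers of ventricle-lining cells were also mostly below 0 in hypothalamus. Of 14 ependymal markers that are not in the gene set, 11 were below 0 with a median log2 fold change of -0.13, with the sums given above. Of 14 tanycyte markers, 13 were below 0 with a median of -0.18. At an unadjusted p under 0.05 by limma, 5 of them were lower, against 4.08% of all genes. Their sums were 9470 to 11765 in Ins2 and 10761 to 12564 in control samples. Tanycytes line the floor of the ventricle next to the arcuate nucleus. Limma called 0 genes of either list, and 1 ependymal marker was lower at an unadjusted p under 0.05. Choroid plexus epithelial markers were below 0 for 13 of 23 (median -0.10), macrophage and microglia markers for 9 of 14 (-0.01). Endothelial and mural markers were below 0 for 8 of 15 (-0.04). Neuron and oligodendrocyte markers were each above 0 for 11 of 15, with 4 and 3 higher at an unadjusted p under 0.05 by limma (5.85% of all genes). Astrocyte markers were above 0 for 8 of 14 (3 higher), fibroblast and meningeal markers for 6 of 10. At that threshold 2 endothelial and mural markers and 1 choroid plexus epithelial marker were also higher. On the lower side were 1 macrophage and microglia marker and 1 fibroblast and meningeal marker. Per library, the median deviation of the motile cilia genes from the tissue mean was lowest in Ins2 library 4 (-0.21 on the log2 scale), where ependymal markers were at -0.40 and tanycyte markers at -0.26. It was highest in control 3 (0.18), where they were at 0.21 and 0.06. The part of these cells in the result was not tested.

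In choroid plexus, 6 of 13 ependymal markers and 4 of 10 tanycyte markers were above 0, with medians of -0.01 and -0.05. Of 24 choroid plexus epithelial markers 7 were above 0, with a median of -0.06, so that they lay on the side opposite to the motile cilia genes; sums were 5191732 to 5958690 scaled reads in Ins2 and 5504855 to 5995156 in control samples. All 14 astrocyte markers were below 0 with a median of -0.50, with sums of 9221 to 10686 in Ins2 and 9461 to 18316 in control samples, the highest in control 2. Their median deviation from the tissue mean was 1.93 in control 2, 0.72 in control 1 and -0.42 to -0.21 in controls 3, 4 and 5. In Ins2 libraries it was -0.62 to 0.07. Oligodendrocyte markers were below 0 for 13 of 15, with a median of -0.29. Their median deviation was 4.55 in control 2, -1.58 to -0.19 in the other controls and -0.61 to 0.47 in Ins2 libraries. At an unadjusted p under 0.05 by limma, 2 choroid plexus epithelial, 2 astrocyte, 1 oligodendrocyte and 1 ependymal marker were lower (3.67% of all genes). Macrophage and microglia markers were above 0 for 11 of 14, as most motile cilia genes were, with a median of 0.38. Of these 14, 1 was higher at that threshold (2.54% of all genes) and 0 were called by limma. Their sums were 1388 to 2863 in Ins2 and 827 to 2136 in control samples, and their median deviation was lowest in control 5 (-1.28) and highest in Ins2 library 1 (0.74). The part of these cell types in the result was not tested.

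**Figure D5:**
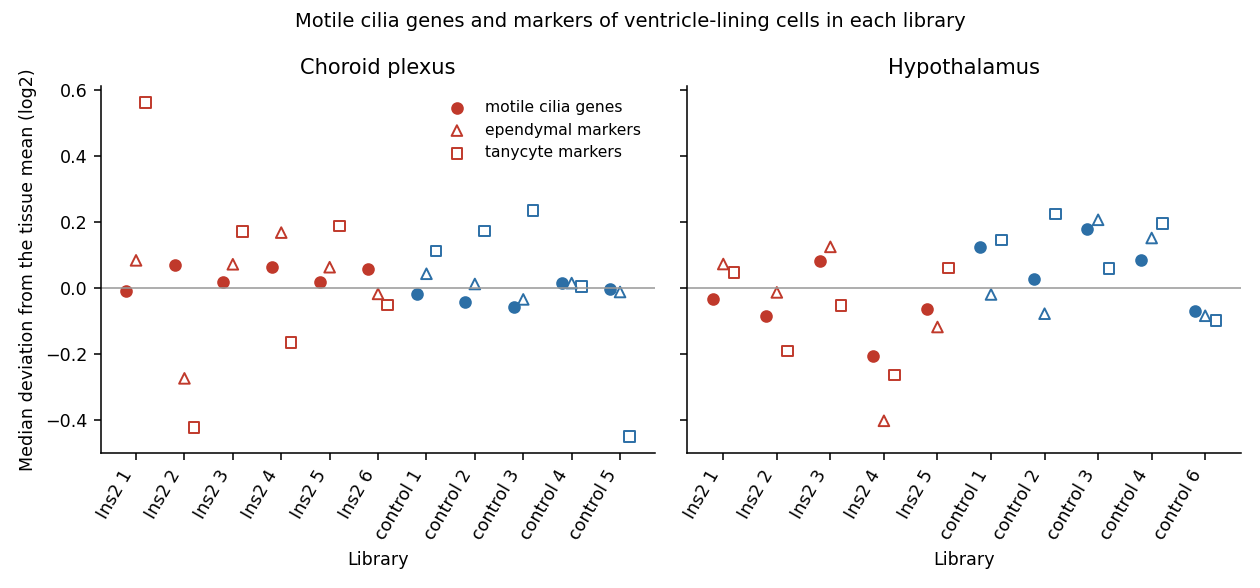
Median deviation from the tissue mean (log2) of the motile cilia genes (circles), ependymal markers (triangles) and tanycyte markers (squares) in each library, Ins2 in red and control in blue. In hypothalamus Ins2 library 4 lies lowest for motile cilia genes, at -0.21, and control 3 highest, at 0.18; in choroid plexus the motile cilia genes stay between -0.06 and 0.07.

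The responses of the tissues were then set against each other. Of the 70 genes tested in both, 40 were above 0 in choroid plexus and below 0 in hypothalamus (57.1%, against 27.2% of all 13997 genes), 5 were the reverse (29.1% of all genes), 10 were above 0 in both and 15 below 0 in both. The difference of the log2 fold changes, choroid plexus minus hypothalamus, passed an adjusted p under 0.05 for 0 of the 70, and for 0.107% of all genes. At an unadjusted p under 0.05 it did so for 16, all with choroid plexus above hypothalamus (4.74% of all genes in that direction); leaving out single libraries gave 11 to 17.

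Cfap44 had log2 fold changes of 0.15 in choroid plexus and -0.39 in hypothalamus, a difference of 0.54 ± 0.13 (SE; limma-based adjusted p = 0.0789). Cfap206 had 0.09 and -0.55, a difference of 0.64 ± 0.16 (adjusted p = 0.116 by limma). Tekt1 had 0.12 and -0.36, a difference of 0.48 ± 0.13, and Wdr78 had 0.23 and -0.14, a difference of 0.37 ± 0.12, with adjusted p-values of 0.144 and 0.228 by limma. In each the choroid plexus response was above 0 and the hypothalamus response below it. Cfap44 passed without choroid plexus Ins2 library 4 (0.56, adjusted p = 0.0495 by limma) and without hypothalamus control 6 (0.60, adjusted p = 0.0257), as did Cfap206 without control 6 (0.72, adjusted p = 0.0464). Over recovered reads, edgeR's interaction test called Cfap206 (0.64, edgeR adjusted p = 0.0470), and that of DESeq2 called Cfap206 (0.63, DESeq2 adjusted p = 0.00203), Cfap44 (0.53, 0.00339) and Tekt1 (0.46, 0.0177). These tests treat the tissues as independent, which need not hold if they came from the same mice.

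Other cilia genes, in lists chosen with earlier results known, gave 0 calls by limma in either tissue. Dynein light and intermediate chains, docking and preassembly genes outside the set were above 0 for 20 of 22 in choroid plexus, with a median of 0.08, and below 0 for 15 of 22 in hypothalamus, with a median of -0.06. In choroid plexus Ttc25 and Ccdc151, both of the docking complex, averaged 722 ± 59.6 and 374 ± 40.5 scaled reads in Ins2 and 649 ± 59.0 and 327 ± 27.3 in control samples, folds of 1.11 and 1.14. In hypothalamus Dynll1, a light chain shared with cytoplasmic dynein, had a fold of 0.903 and Tctex1d2 1.14. Other axoneme genes, those of the nexin-dynein regulatory complex among them, were above 0 for 30 of 49 in choroid plexus (median 0.06; Efcab2 0.865, Spag8 1.18) and below 0 for 38 of 52 in hypothalamus (median -0.07; Nme5 0.801, Adgb 0.811).

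Genes of multiciliation and basal bodies were above 0 for 16 of 27 in choroid plexus and below 0 for 19 of 32 in hypothalamus. Deup1, which builds the structures that multiply centrioles, had 51.2 ± 12.8 scaled reads in Ins2 and 30.6 ± 7.38 in control choroid plexus, a fold of 1.65 (adjusted p = 0.699 by limma), and Dzip1l had a fold of 0.852. In hypothalamus Odf2 had 0.941 and Cep63 0.908. Intraflagellar transport, which carries parts into motile and primary cilia alike, was above 0 for 20 of 31 in choroid plexus (median 0.02; Kif3b 0.893, Cluap1 1.09) and below 0 for 20 of 31 in hypothalamus (median -0.02; Cluap1 0.877, Dync2h1 0.917). Genes of the BBSome and primary cilium, the sensory organelle of most cells, were above 0 for 18 of 35 in choroid plexus (median 0.002; Gpr161 0.850, Arl6 1.11) and below 0 for 20 of 35 in hypothalamus (median -0.04; Adcy3 1.13). Adjusted p-values of the genes named from these lists were 0.443 to 0.839 by limma.

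Within the groups, the genes varied together to some degree in hypothalamus and hardly in choroid plexus, a contrast that was not tested. Across pairs of motile cilia genes, the median Pearson correlation of deviations from the group means was 0.20 over 10 hypothalamus libraries (71 genes) and 0.006 over 11 choroid plexus libraries (70 genes), with -0.001 and -0.002 for all genes. The genes of 1 library share its depth and its tissue sample, so these values are a description. In hypothalamus 29 of 71 genes had a correlation above 0.5 with the mean of the others, led by Cfap65 (0.90), Dnaaf3 (0.85), Cfap100 (0.85) and Dnah6 (0.84). In choroid plexus 2 of 70 did, Cfap54 (0.53) and Rsph14 (0.51). The genes outside the set most like the hypothalamus mean were Pced1b (0.96), Ppp1r36 (0.96), Chia1 (0.95), Exosc9 (0.93), 2310030G06Rik (0.93), Il20rb (0.93), Armc3 (0.92) and Dlec1 (0.90). In choroid plexus they were Sbf2 (0.92), D030028A08Rik (0.90), Nab1 (0.89), Bsdc1 (0.88), Spata6 (0.88), Ypel1 (0.88), Map3k7 (0.88) and Polr2g (0.86). Both lists hold the highest values of a search over all other genes tested, in 10 or 11 libraries. Such a search picks high values by itself, and these were not tested.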

How the data were processed

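Libraries were made from poly(A) RNA with strands marked, per the labels' protocols. HISAT2, featureCounts and DESeq2 and the build GRCm38 (mm10) are named in the submitters' processing notes, without versions or a strand setting. The deposited signal values are normalized gene counts, 1 table per tissue, whose steps are those of read counts divided by 1 size factor per library. Dividing each library by its smallest step gave whole reads, within 0.02, for 100% of values. Replicates may be technical, since no label says they are separate mice, and the p-values then cover only their spread.

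The main test was limma 3.58.1 (R 4.3.3) per tissue on log2(value + 1), with its trend option, for all genes with a mean of at least 10. P-values were two-sided and adjusted over all genes tested (Benjamini-Hochberg, 0.05), and intervals are at 95%. Fold changes on this scale understate those of low genes. EdgeR 4.0.16 (quasi-likelihood, TMM) and DESeq2 1.42.0 ran on recovered reads. Single genes had an exact permutation test over 462 or 252 splits. Differences between tissues used both moderated errors with Welch-Satterthwaite degrees of freedom. RPKM used GENCODE exon lengths, and all 73 genes matched. Limits of a count of 0 (3 reads) cover counting error only. Scripts were tested on simulated data.

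The members and lists were chosen with earlier results of these data known. Named in full are, per tissue, the 8 genes with the smallest p in each direction, the most abundant of each family and the 7 listed by name. Between tissues, the 4 with the smallest p are named, and of each other cilia list 2 per tissue, of which 1 gene is not reported here. Genes of whose levels the text speaks by role were chosen after their values were seen. Of 73 genes, 41 overlap an opposite-strand gene and 31 share exon bases with it, 10 of them over 10%. Alternatives were other pseudocounts, filters, scaling, weights, a replicate block, other tools and leaving out each library.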

Additional observations from a re-analysis of the deposited data

Results flagged for a closer look

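Of 98 groups of libraries examined for the named genes, 3 held a library far from the others, and chance flags about 1 in 20. Cfap57 in choroid plexus Ins2 library 4 was low, at 197 scaled reads against 259 to 289 in the other Ins2 libraries. Cfap20 in choroid plexus control 2 was low, at 969.9 against 1129 to 1184 in the other controls. Dnah11 in choroid plexus control 1 was low, at 2487 against 2792 to 2878 in the other controls.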

How the results depend on the processing

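The 0 calls among motile cilia genes by limma held in each tissue under every pseudocount, filter, scaling, weighting, block and left-out library tried, and by edgeR; DESeq2 called 1 in choroid plexus. The median log2 fold change ran from 0.03 to 0.08 in choroid plexus and from -0.15 to -0.07 in hypothalamus. Over all genes, the calls in choroid plexus were 1 with a mean of at least 50, 6 with array weights, 34 by DESeq2 and 1 to 4 when single libraries were left out. In hypothalamus they were 41 by DESeq2 and 0 to 18 when single libraries were left out (18 without control 6). Differences between the tissues were called for 1 gene by edgeR, 3 by DESeq2 and 0 to 2 with single libraries left out. The sign turned for genes near 0. With array weights the log2 fold change was 0.023 for Ccdc40 and -0.034 for Hydin in choroid plexus. Leaving out single libraries gave -0.00795 to 0.057 for Rsph9, -0.19 to 0.11 for Ccdc40 and -0.041 to 0.060 for Hydin in choroid plexus. In hypothalamus it gave -0.00266 to 0.18 for Rsph1, -0.0098 to 0.10 for Dnaaf5, -0.040 to 0.13 for Dnaic2, -0.016 to 0.072 for Tekt5 and -0.14 to 0.065 for Spef2. The cause was not tested. Same-numbered Ins2 and control libraries of a tissue did not deviate together (correlations of -0.15 to 0.14). Weak correlations cannot exclude that the numbers pair samples, and they do not cover pairs across the tissues. A replicate block gave 54 calls over all genes in hypothalamus and 0 among motile cilia genes, with Dnaic2 at -0.029 and medians of 0.05 and -0.15. Intervals of the fold were wide for some low genes in choroid plexus, at 0.455 to 1.55 for Dnah5 (10 to 49 reads a library) and 0.476 to 2.12 for Dnah12 (9 to 107 reads); how much of this is depth was not tested.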
